A study of Oryctolagus cuniculus with 12 samples.

Results

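The genes described here encode heat shock proteins and chaperones of the endoplasmic reticulum (ER), measured in the rabbit basilar artery after a bleed around the brain. Members were taken by gene symbol: symbols beginning with HSP, DNAJ, PDIA, CALR, CCT2 to CCT8 or BAG and a number, and the symbols TCP1, CANX, SERPINH1 and HYOU1. On the array 64 such genes had a named probe, and 56 of them were tested, those with a probe flagged as well above background on every array of some group. They are 56 of the 7516 named genes tested. The other 8 (CCT6B, DNAJB2, DNAJB7, DNAJC16, DNAJC5B, DNAJC5G, HSPB7 and HSPB9) were too dim, HSPB7 and HSPB9 least so, with 2 arrays well above background each. Just inside the filter, DNAJC11 passed through its 3 arrays of day 7 and cleared background on 2 arrays in each of the other groups. HSP90B1, HYOU1, HSP90AA1, HSPA8, HSPA1A, HSPA1B, HSPB1, DNAJB1 and DNAJC3 are not analysed here, since no probe was named for them.

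RNA from 12 artery samples was hybridised to 12 single-colour arrays. The groups were arteries taken 3, 5 and 7 days after experimental subarachnoid hemorrhage and control arteries labelled normal, called day 0 in the series, with 3 arrays in each of the 4 groups. The labels name the tissue, the condition and the day, but not whether separate animals gave the samples. The p-values here thus reflect how far these samples spread, and that spread may be technical.

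Chaperones bind proteins that are not yet folded, or have lost their fold. HSP70 proteins do so in cycles driven by ATP, with J-domain (DNAJ) partners that hand over clients and BAG or HSP110 proteins that release the nucleotide. In the ER, HSPA5 (BiP) is the HSP70, calreticulin and calnexin hold glycoproteins, and protein disulfide isomerases (PDIs) make and rearrange disulfide bonds. Heat shock factors switch on the cytosolic proteins, and the unfolded protein response switches on the ER set.

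Each value rests on a 60-base probe. The probes below are those of the members with the smallest adjusted p on day 3 and the other probes of the same genes. They are printed because neighbouring probes share bases. Capitals mark the longest run that a gene's main probe shares with another probe of the gene, 40 bases for PDIA4 and 20 for DNAJC18. Lower case is used elsewhere, and for PDIA5, PDIA6 and CALR3, which had 1 tested probe each. The array's own annotation, which names no genome build, places the PDIA4 probes on chromosome 7, PDIA5 on 14 and DNAJC18 on 3, and leaves PDIA6 and CALR3 without a chromosome.
PDIA4 main probe: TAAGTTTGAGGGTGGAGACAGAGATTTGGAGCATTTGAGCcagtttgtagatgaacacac
PDIA4 other probe: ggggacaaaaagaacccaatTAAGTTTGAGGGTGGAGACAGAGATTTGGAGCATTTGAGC
PDIA5: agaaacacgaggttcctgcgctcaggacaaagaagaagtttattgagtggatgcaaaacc
PDIA6: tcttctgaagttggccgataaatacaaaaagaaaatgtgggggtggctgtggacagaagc
CALR3: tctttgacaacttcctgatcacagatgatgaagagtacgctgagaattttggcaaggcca
DNAJC18 main probe: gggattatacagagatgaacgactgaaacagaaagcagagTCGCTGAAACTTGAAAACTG
DNAJC18 overlapping probe: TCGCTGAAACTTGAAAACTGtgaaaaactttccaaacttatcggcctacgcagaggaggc
DNAJC18 separate probe: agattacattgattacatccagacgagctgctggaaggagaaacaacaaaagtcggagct

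The arrays were alike in most quality values. Signals had a 75th percentile of 127 to 191 units, 0 spots were saturated, and 58.2% to 64.0% of spots were well above background on 11 arrays. Control replicate 2 stood apart in these values, with 50.1% of spots well above background and 169 outlier spots, against 1 to 16 on the other arrays. It was not the array with the most scatter. Array weights from limma, lower where an array strays more from its group, were 0.33 for day 5 replicate 3, 0.38 for control replicate 3 and 0.46 for control replicate 2. Day 3 replicate 3 had 0.53 and day 7 replicate 3 had 0.65. A level is given below as the log2 signal relative to the 75th percentile of its array, so levels of 1 gene can be compared between arrays but not between genes. A change is a difference of such levels, tested with limma, and a member is called where its p, adjusted over all tested probes by Benjamini and Hochberg's method, is below 0.05. The 4 groups took 1 array each on every one of the 3 slides, always at the same place on the slide, so the effect of a group and that of its place cannot be told apart.

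On day 3, PDIA4, PDIA5, PDIA6, CALR3 and DNAJC18 rose and DNAJC21 fell, and the other 50 members did not pass the test. These 6 calls are 10.7% of the members, against 6.99% of all named genes tested. One of them, CALR3, was below background in all controls and entered the test through days 3 and 5, where it is high; without it 5 of 55 members were called (9.09%). Among genes measured by probes well above background on all 12 arrays, 5 of 52 members were called, against 6.79% of all such genes. Calls for a rise came to 8.93% of the members (4.88% of all genes), and the 1 call for a fall to 1.79% (2.1% of all genes). All 3 arrays of day 3 lay above all controls for 11 members (19.6%; 13.7% of all genes) and below them for 5 members (8.93%; 11.5% of all genes). The change was positive for 41 of the 56 members, or 73.2%, against 49.3% of all genes. The median change was 0.09 over the members and -0.01 over all genes on the log2 scale.

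**Figure D1:**
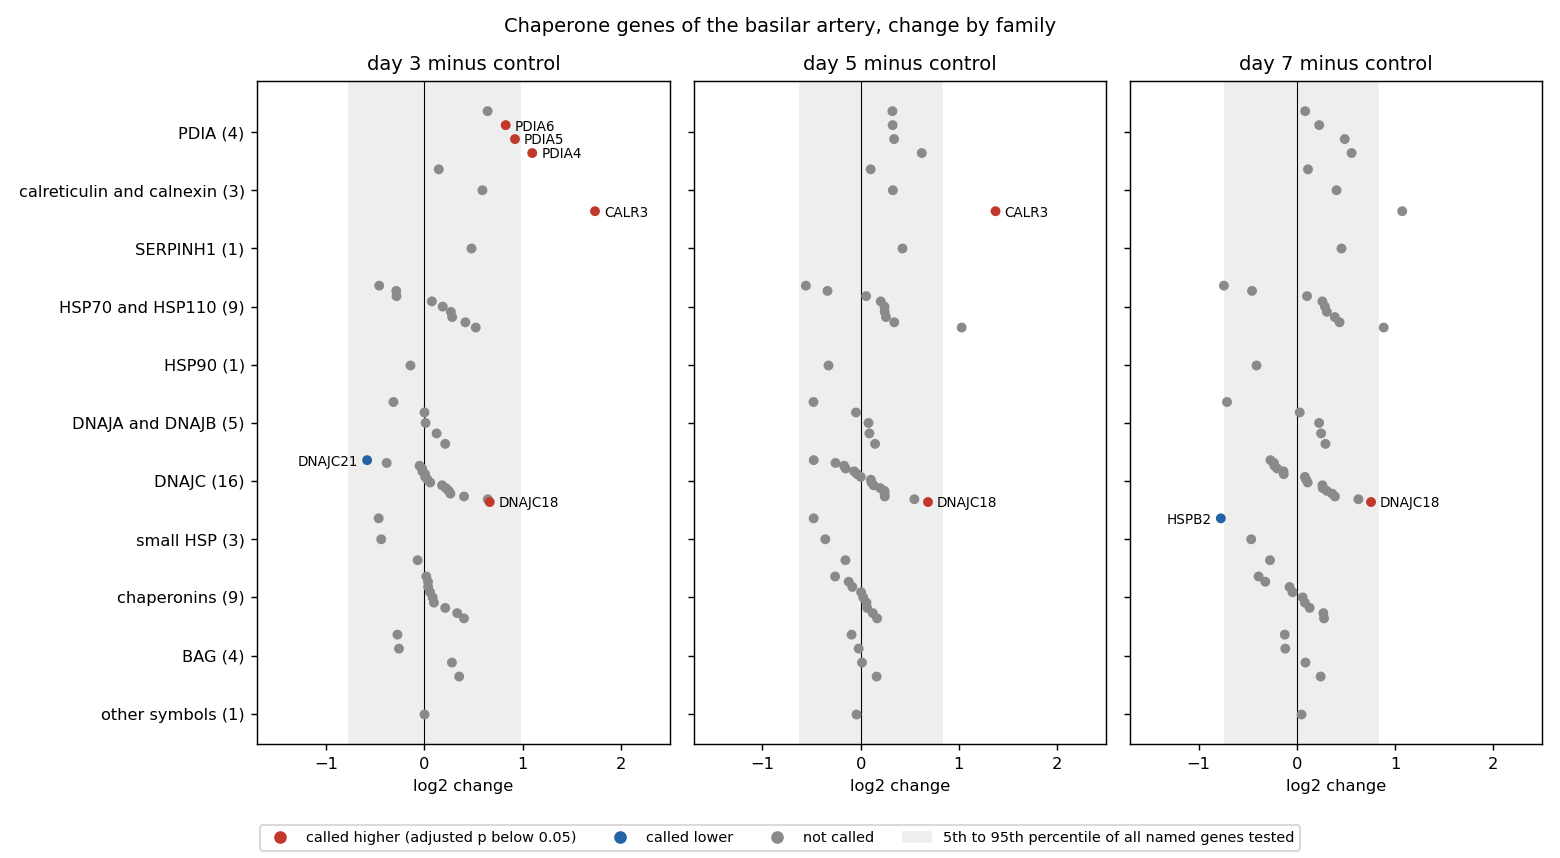
Log2 change of each of the 56 members (points) by family on days 3, 5 and 7 relative to controls, with n per family in brackets; red points were called higher, blue ones lower, grey ones not called, and the grey band spans the 5th to 95th percentile of the 7516 named genes tested. On day 3 the 4 PDIA genes lie between 0.64 and 1.10, while the 9 chaperonin subunits lie between 0.02 and 0.40.

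Of the 4 PDIs named PDIA, which handle disulfide bonds in the ER, 3 rose on day 3 and all 4 had a positive change, with a median of 0.88. Of all genes 4.88% were called higher and 49.3% had a positive change on day 3. PDIA4 (ERp72) had levels of 0.86, 0.71 and 0.98 in controls, 1.62, 2.02 and 2.22 on day 3, 1.64, 1.37 and 1.41 on day 5, and 1.61, 1.27 and 1.34 on day 7. Each of the 9 arrays taken after hemorrhage lay above each control. PDIA4 averaged 1.95 ± 0.31 on day 3 and 0.85 ± 0.14 in controls (SD, n = 3 each), a 2.14-fold higher signal (log2 change 1.10, SE 0.18, limma adjusted p = 0.00489). Its change was 0.62 on day 5 (adjusted p = 0.120) and 0.56 on day 7 (adjusted p = 0.135), neither of them called. The other PDIA4 probe, with which it shares 40 bases, rose by 0.96 on day 3 (SE 0.18, adjusted p = 0.00934). The 2 probes are therefore not separate evidence.

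PDIA5, a PDI that acts on the stress sensor ATF6 in human cells, had levels of -0.73, -0.81 and -0.46 in controls, 0.05, 0.15 and 0.58 on day 3, -0.48, -0.33 and -0.21 on day 5, and -0.59, -0.65 and -0.49 on day 7. The arrays of day 3 stood above all the others, and those of days 5 and 7 overlapped the controls. It was 1.90-fold higher on day 3 (log2 change 0.92, SE 0.17, limma adjusted p = 0.00940), with changes of 0.32 on day 5 (adjusted p = 0.431) and 0.08 on day 7 (adjusted p = 0.835). The calls of PDIA4 and PDIA5 on day 3 held in all 8 other processing settings and without each of the 12 arrays in turn, with adjusted p-values of 0.00244 to 0.0224 for PDIA4 and 0.00384 to 0.0360 for PDIA5.

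PDIA6 (P5), which binds the stress sensor IRE1 in human cells, had levels of 1.22, 1.22 and 0.95 in controls, 1.75, 1.77 and 2.36 on day 3, 1.17, 1.49 and 1.71 on day 5, and 1.46, 1.33 and 1.29 on day 7. Day 3 replicate 3 was its highest array, and all 3 arrays of day 3 lay above the controls. PDIA6 was 1.78-fold higher on day 3 (log2 change 0.83, SE 0.20, limma adjusted p = 0.0319). Its change was 0.33 on day 5 and 0.23 on day 7 (adjusted p = 0.509 and 0.587). The call on day 3 was lost without control replicate 1 (adjusted p = 0.0667), control replicate 2 (0.0579), control replicate 3 (0.0709) or day 3 replicate 3 (0.114, with a change of 0.63), and with dim probes kept in the test (0.0786).

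PDIA3 (ERp57), the partner of calreticulin and calnexin, changed by 0.64 on day 3 (SE 0.26, adjusted p = 0.170), 0.34 on day 5 and 0.49 on day 7, without a call. Its levels on day 3, 2.68, 2.99 and 3.63, overlapped those of the controls, 2.15, 2.26 and 2.97. Its other probe changed by 0.56 on day 3 (SE 0.17, adjusted p = 0.0738). The median over the 4 PDIA genes within each slide was 0.65, 0.84 and 1.14 on day 3, and over the 20 other settings it ranged from 0.69 to 0.98.

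**Figure D2:**
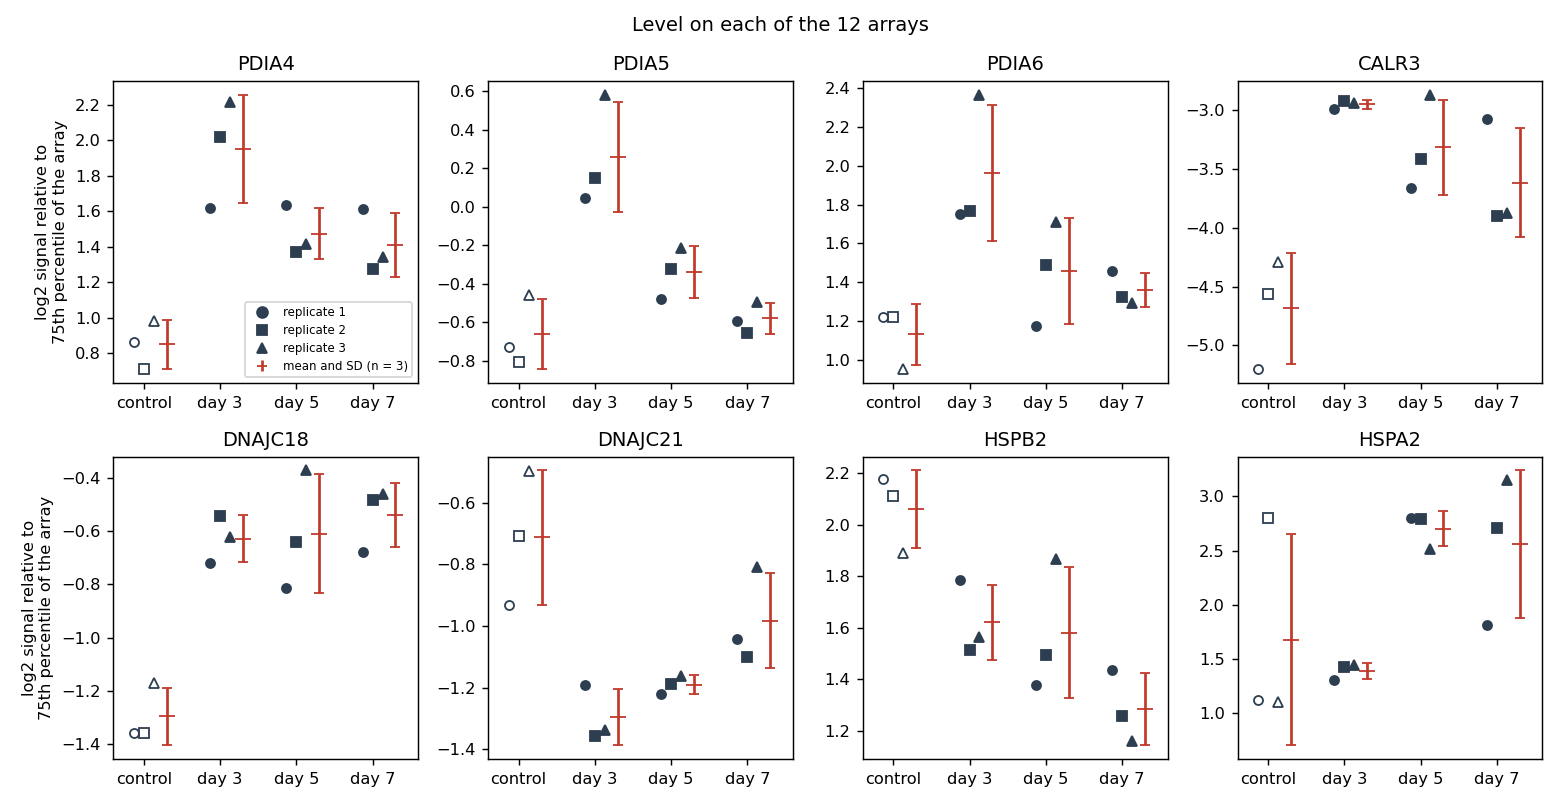
Level on each of the 12 arrays (log2 signal relative to the array's 75th percentile; own axis per gene) of the 7 members called on any day and of HSPA2, with open symbols for controls, filled ones for days 3, 5 and 7, and red bars for the mean and SD (n = 3). PDIA4, PDIA5, PDIA6, CALR3 and DNAJC18 lie above the controls on day 3, and for HSPA2 control replicate 2 (2.80) lies with the arrays of day 5.

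Among the glycoprotein chaperones, CALR3 rose on days 3 and 5, while CALR and CANX did not pass the test. CALR3, a calreticulin known from the testis in mouse and human and described on the array as calreticulin-like, was dim. Its signal cleared background in 0 of 3 controls, in every sample of days 3 and 5, and in 1 sample of day 7. It passed the filter on dim probes through days 3 and 5 alone, so a brighter signal on those days was partly built into its selection. Its measured levels were -5.21, -4.57 and -4.29 in controls, -2.99, -2.92 and -2.93 on day 3, -3.66, -3.41 and -2.87 on day 5, and -3.08, -3.90 and -3.87 on day 7. The arrays of all 3 days lay above the controls. With the controls below background only a bound can be given: the signal was at least 1.53-fold higher on day 3 (means of -2.95 ± 0.04 on day 3 and -4.69 ± 0.47 in controls, limma adjusted p = 0.00535) and at least 1.19-fold higher on day 5 (mean -3.31 ± 0.41, adjusted p = 0.0360; SD, n = 3 each). On day 7 the adjusted p was 0.0805.

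The change of CALR3 depended on how background was handled. With normexp correction of the raw spot signal its change was 0.18 on day 3 (adjusted p = 0.760) and 0.53 on day 5 (adjusted p = 0.201). Its call on day 3 held without each of the 12 arrays in turn. Its call on day 5 was lost with dim probes kept in the test (adjusted p = 0.0765) and without any 1 of 7 arrays: control replicates 1 and 2, day 3 replicates 1 and 2, or any replicate of day 5 (adjusted p = 0.0519 to 0.111). On day 7 it was called without control replicate 3 (adjusted p = 0.0400) and with array weights (0.0226). Whether CALR3's probe also binds transcripts of CALR was not tested.

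CALR, calreticulin itself, had levels of 8.40, 8.33 and 8.94 on day 3 and 7.81, 7.91 and 8.18 in controls. The groups did not overlap, but the change of 0.59 was not called (SE 0.20, limma adjusted p = 0.108), nor were those of 0.33 on day 5 and 0.40 on day 7. All 5 CALR probes gave changes between 0.49 and 0.59 on day 3. CANX, calnexin, changed by 0.15, 0.10 and 0.11 on days 3, 5 and 7 (adjusted p = 0.738, 0.884 and 0.813).

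SERPINH1 (HSP47), the ER chaperone of collagen, had levels of 0.53, 0.33 and 1.39 on day 3 and 0.01, 0.34 and 0.48 in controls. Day 3 replicate 3 was its highest array, and the groups overlapped. Its changes were 0.48, 0.43 and 0.45 on days 3, 5 and 7, none of them called (SE 0.25, limma adjusted p = 0.304, 0.489 and 0.382). HSPA5 (BiP), the HSP70 of the ER, had levels of 2.01, 2.05 and 2.58 on day 3 and 1.98, 1.72 and 1.69 in controls, groups that did not overlap. Its changes of 0.42, 0.24 and 0.26 were not called either (SE 0.21, adjusted p = 0.267, 0.663 and 0.546), and its 3 probes gave 0.42 to 0.48 on day 3. The ER-resident J-domain partners of HSPA5 changed less, with 0.21 for DNAJB11 (adjusted p = 0.658) and 0.01 for DNAJB9 (adjusted p = 0.985) on day 3.

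Set together, the 12 chaperones and PDIs of the ER (the 4 PDIA genes, CALR, CALR3, CANX, SERPINH1, HSPA5, HSPA13, DNAJB9 and DNAJB11) had 4 calls for a rise on day 3, a positive change in 12 of 12 and a median change of 0.53. Over all named genes tested 4.88% were called higher, 49.3% had a positive change and the median was -0.01. Without CALR3, selected through the days on which it is high, the 11 had 3 calls and a median of 0.48; with CALR3 at its bound the median of the 12 was 0.53. The other 44 members had 1 call in each direction, a positive change in 29 and a median of 0.04. Their call for a rise was DNAJC18, a protein of the ER membrane that was counted with its DNAJC family; moved to the ER genes it makes 5 calls among 13 with a median of 0.59, and leaves 0 calls for a rise among 43 with a median of 0.04. These groupings were made with the values known and were not tested. Only DNAJC18, a called gene, was moved, so the counts after the move rest partly on a choice by outcome. DNAJB14, also a J-domain protein of the ER membrane, stayed among the others, with a change of 0.002 on day 3 (limma adjusted p = 0.996). The 12 are thus not every member of the ER. On day 5 the 12 had 1 call, CALR3 itself, and a median of 0.32 (0.28 with CALR3 at its bound), against 2.16% of all genes called. On day 7 they had 0 calls and a median of 0.30, against 2.54% of all genes called.

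**Figure D3:**
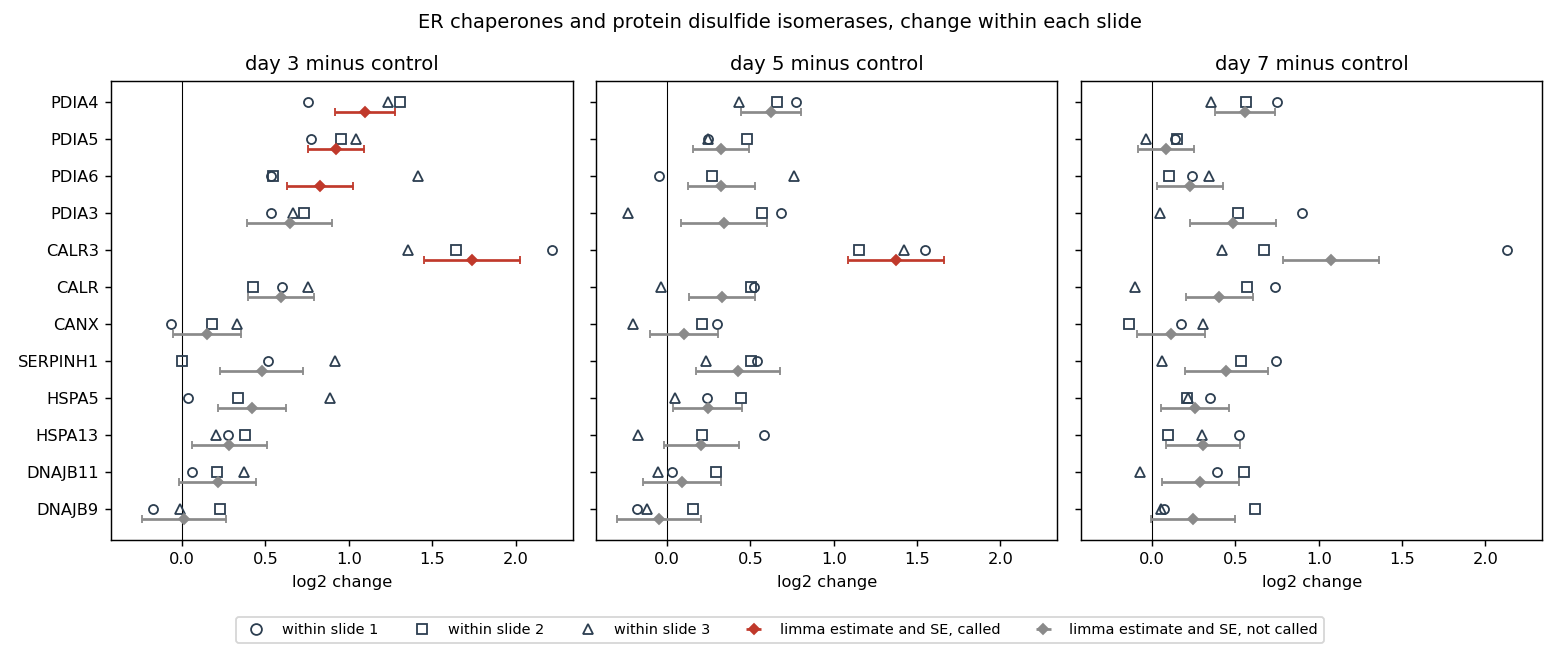
Log2 change of the 12 ER chaperones and PDIs on days 3, 5 and 7 relative to controls within slide 1 (circles), slide 2 (squares) and slide 3 (triangles), with the limma estimate and its SE as a diamond, red where called. On day 3 the 3 slides gave PDIA4 changes of 0.76, 1.31 and 1.23, and SERPINH1 changes of 0.52, -0.00 and 0.92.

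None of the 9 HSP70 and HSP110 genes was called on any day, and their median change was 0.19 on day 3, 0.24 on day 5 and 0.28 on day 7. HSPA2, an HSP70 known for its role in the testis of mice, varied most between arrays of a group. Its levels were 1.12, 2.80 and 1.10 in controls, 1.31, 1.42 and 1.44 on day 3, 2.80, 2.79 and 2.52 on day 5, and 1.81, 2.71 and 3.15 on day 7. Control replicate 2, the array that stood apart in its spots above background and its outlier spots, matched the levels of day 5. The change on day 5 was 1.03 (SE 0.43, limma adjusted p = 0.291), and without control replicate 2 it was 1.59 (adjusted p = 0.0333). Against day 3, the change on day 5 was 1.31 (adjusted p = 0.496), and with array weights 1.39 (adjusted p = 0.0321).

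Of the remaining HSP70 and HSP110 genes, HSPA4, a nucleotide exchange factor, had levels of 3.69, 3.74 and 4.14 on day 3 and 3.32, 3.08 and 3.59 in controls, groups that did not overlap. Its change of 0.52 was not called (SE 0.18, limma adjusted p = 0.112). HSPH1 (HSP110) changed by 0.19, 0.34 and 0.39 on days 3, 5 and 7 (adjusted p = 0.514, 0.305 and 0.200). HSPA9, the mitochondrial HSP70, changed by 0.08, 0.06 and 0.10. HSPA12B, an atypical member found in endothelium and singled out after its values were seen, changed by -0.28, -0.34 and -0.74 (adjusted p = 0.517, 0.546 and 0.108). The 6 measured endothelial markers had median changes of -0.61, -0.44 and -0.63 on these days, with a negative change in 4, 5 and 5 of them. Only KDR was called lower, on day 3, where it was below background. The part of endothelial cells in the values of HSPA12B was not tested. The changes of HSPA12A, HSPA13 and HSPA14 on day 3 were -0.46, 0.28 and 0.27. HSP90AB1, the constitutive cytosolic HSP90 and the 1 HSP90 gene measured, changed by -0.15, -0.33 and -0.42 (adjusted p = 0.631, 0.330 and 0.165).

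A gene without a member symbol, LOC100354037, is described on the array as protein 1A of the HSP70 family, the stress-inducible form, and was not counted as a member. Its levels were 5.10, 2.61 and 5.90 in controls, 3.69, 4.04 and 4.35 on day 3, 4.01, 3.40 and 3.46 on day 5, and 6.66, 7.15 and 2.77 on day 7. Arrays of 1 group differed by up to several log2 units in the controls and on day 7, so the SE of each change was 1.03. Its changes of -0.51, -0.92 and 0.99 on days 3, 5 and 7 lay within that error (limma adjusted p = 0.831, 0.760 and 0.657).

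Among the 16 DNAJC genes, DNAJC18 rose on all 3 days and DNAJC21 fell on day 3. DNAJC18, a J-domain protein of the ER membrane, had levels of -1.36, -1.36 and -1.17 in controls, -0.72, -0.54 and -0.62 on day 3, -0.81, -0.64 and -0.37 on day 5, and -0.68, -0.49 and -0.46 on day 7. All 9 arrays after hemorrhage lay above all 3 controls. It was 1.59-fold higher on day 3 (log2 change 0.67, limma adjusted p = 0.0244), 1.61-fold on day 5 (0.69, adjusted p = 0.0421) and 1.69-fold on day 7 (0.75, adjusted p = 0.0263), each with an SE of 0.15. Its other 2 probes changed by 0.64 and 0.49 on day 3 and were not called on any day (adjusted p = 0.0757 and 0.149 on day 3).

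The calls of DNAJC18 were close to the threshold. On day 3 the call was lost without control replicate 1 (limma adjusted p = 0.0754), control replicate 2 (0.0648), day 3 replicate 2 (0.0875) or day 3 replicate 3 (0.0793). On day 5 it was lost without any 1 array other than control replicate 3 (adjusted p = 0.0553 to 0.121). On day 7 it was lost without control replicate 1 (0.0891), control replicate 2 (0.0806) or day 7 replicate 1 (0.0641), 2 (0.0850) or 3 (0.0949). Normexp correction, keeping dim probes and the mean over its probes each ended the call on every day (adjusted p of 0.0787, 0.0701 and 0.0512 on day 3, 0.0637, 0.106 and 0.147 on day 5, and 0.101, 0.0809 and 0.0771 on day 7), with changes of 0.42 to 0.75.

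DNAJC21, a J-domain protein of ribosome assembly that the array describes as DnaJ subfamily A member 5, had levels of -1.19, -1.36 and -1.34 on day 3 and -0.93, -0.71 and -0.50 in controls. All arrays of day 3 lay below the controls. It fell by 0.58 on the log2 scale (SE 0.15, limma adjusted p = 0.0415), a 1.50-fold lower signal. Its change was -0.48 on day 5 and -0.27 on day 7 (adjusted p = 0.150 and 0.375). The call was lost with normexp correction (-0.35, adjusted p = 0.199), with dim probes kept (0.107) and without any 1 of 9 arrays, that is, all but control replicate 1, day 5 replicate 3 and day 7 replicate 3 (adjusted p = 0.0548 to 0.130).

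The other DNAJC genes changed by -0.38 to 0.65 on day 3 without a call. At the upper end was DNAJC24, a J-domain protein needed for the diphthamide modification of a translation factor, singled out here after its values were seen. Its changes were 0.65, 0.55 and 0.63 on days 3, 5 and 7 (SE 0.26, limma adjusted p = 0.179, 0.380 and 0.245). Within the slides its changes on day 3 were 0.56, 0.68 and 0.69. The 5 DNAJA and DNAJB genes had 0 calls and a median change of 0.01 on day 3. DNAJA3, a mitochondrial J-domain protein, changed by -0.31, -0.48 and -0.71 on the 3 days (adjusted p = 0.347, 0.231 and 0.0663), and was called on day 7 without control replicate 3 (adjusted p = 0.0287).

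All 3 small heat shock proteins measured had a negative change on each day, and 1 of them, HSPB2, fell on day 7. Of all 7516 genes, 3807, 3507 and 3447 had a negative change on days 3, 5 and 7. The sign was not the same on every slide: within slide 3, 2 of the 3 had a positive change on day 3 and 2 on day 5, and within slide 2, 1 on day 5. HSPB2, which is abundant in muscle, had levels of 2.18, 2.11 and 1.89 in controls, 1.79, 1.51 and 1.56 on day 3, 1.38, 1.50 and 1.87 on day 5, and 1.44, 1.26 and 1.16 on day 7. The arrays of each day lay below the controls. On day 7 it fell by 0.77 on the log2 scale (SE 0.17, limma adjusted p = 0.0377), a 1.71-fold lower signal. Its changes of -0.44 on day 3 and -0.48 on day 5 were not called (adjusted p = 0.151 and 0.196), but with array weights it was called on day 5 as well (-0.62, adjusted p = 0.0351). The call on day 7 was lost with normexp correction (-0.69, adjusted p = 0.0651), with dim probes kept (0.103) and without any 1 of 8 arrays, which are all but day 3 replicate 1, day 5 replicates 1 and 3 and control replicate 3 (adjusted p of at most 0.132).

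HSPB6 (HSP20), which is phosphorylated when smooth muscle relaxes, changed by -0.46, -0.16 and -0.27 on days 3, 5 and 7 (limma adjusted p = 0.342, 0.857 and 0.626). HSPB8, which works with BAG3, changed by -0.07, -0.36 and -0.47 (adjusted p = 0.910, 0.557 and 0.341). BAG3 changed by 0.28, 0.01 and 0.24 and was not called, like the other 3 BAG genes. BAG1 had the largest change of these on day 3, 0.36 (adjusted p = 0.220).

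The chaperonins, ring complexes that fold actin, tubulin (TCP1 and CCT subunits) and mitochondrial proteins (HSPD1 and HSPE1), had 0 calls among 9 genes on each day. All 9 changes were positive on day 3 (49.3% of all genes), with a median of 0.09 and a range of 0.02 to 0.40. These signs depended on the probe: other probes of HSPE1 changed by -0.18, -0.02 and -0.04, and the other probe of CCT7 by -0.05. Over the 20 other settings the median of the chaperonins on day 3 ranged from -0.01 to 0.20. TCP1 had levels of 4.76, 4.71 and 4.98 on day 3 and 4.69, 4.63 and 5.02 in controls. Its groups overlapped, and its change was 0.04 (SE 0.16, limma adjusted p = 0.923). HSPD1 and HSPE1 changed by 0.10 and 0.02 on day 3 (adjusted p = 0.805 and 0.978). CCT7 had a negative change of -0.26 on day 5 and -0.39 on day 7 (adjusted p = 0.456 and 0.186). HSPBAP1, a binding partner of a small heat shock protein that the symbol rule takes in, changed by -0.05 on day 5 and 0.04 on day 7 (adjusted p = 0.956 and 0.941).

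On day 5, 2 of the 56 members were called, CALR3 and DNAJC18, or 3.57% of the members against 2.16% of all named genes tested. Without CALR3, selected through the days on which it is high, 1 of 55 members was called (1.82%), below the share of all genes. The arrays did not overlap the controls for 6 members above them (10.7%; 10.2% of all genes) and 5 members below them (8.93%; 6.87% of all genes). On day 7, 2 were called, DNAJC18 and HSPB2, also 3.57%, against 2.54% of all genes. There, 10 members lay wholly above the controls (17.9%; 12.2% of all genes) and 6 wholly below them (10.7%; 11.1% of all genes). An F test over the 3 days called 4 members, CALR3, PDIA4, PDIA5 and DNAJC18, or 7.14%, against 3.3% of all genes. CALR3 is counted here although it was selected through days on which it is high. With only probes well above background on all 12 arrays, which leaves CALR3 out, the F test called 3 of 52 members. Of all such genes it called 3.17%. The 3 comparisons share the same controls, so their calls are not separate evidence.

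No member was called between days by limma, in 3 comparisons. Of all genes, 0% were called for day 5 against day 3, 0.106% for day 7 against day 3 and 0% for day 7 against day 5. At an unadjusted p below 0.05 there were 5, 10 and 0 members in these comparisons, and 7.57%, 11.9% and 1.73% of all genes. PDIA5 had the change with the smallest p of the called members, -0.84 on day 7 against day 3 (SE 0.17, adjusted p = 0.110), and it was -0.60 on day 5 against day 3 (adjusted p = 0.393). With array weights both were called (-0.77, adjusted p = 0.0205, and -0.52, adjusted p = 0.0335). PDIA4 changed by -0.54 and PDIA6 by -0.60 on day 7 against day 3 (adjusted p = 0.315 and 0.314).

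The slides, each with 1 array of every group, were also fitted as a block. CALR3 on day 5 then missed the threshold (limma adjusted p = 0.0520), and the other 9 calls against the controls held, with adjusted p-values from 0.00384 for PDIA5 to 0.0424 for HSPB2. DNAJC24 was called with the block on day 3 (adjusted p = 0.0219) and day 7 (0.0392).

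Genes that work beside these chaperones were counted in 6 lists, whose counts are read against the 4.88% of all genes called higher on day 3 and the 2.16% and 2.54% called in either direction on days 5 and 7. For lists of this size, 1 call is near that background. On day 3, 2 of 11 measured genes of ER oxidative folding and prolyl isomerases rose, FKBP11 by 1.44 (adjusted p = 0.0113) and PPIB, cyclophilin B, by 0.77 (adjusted p = 0.0243). The median of this list was 0.46. P4HB, the founding PDI, which the symbol rule does not take in and which is named here, like HSF1 and CRYAB below, after its values were seen, changed by 0.50 and was not called (adjusted p = 0.427). In ER-associated degradation, which returns misfolded proteins to the cytosol, DERL1 rose by 0.80 (adjusted p = 0.00610) and EDEM2 by 0.86 (adjusted p = 0.00769), 2 of 9 genes, with a median of 0.40. SEC61A1, the channel of the translocon, rose by 0.77 (adjusted p = 0.0150; 2 of 3 controls were well above background), 1 of 12 genes in its list, with a median of 0.40. None of these 3 lists had a call on day 5 or day 7.

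The other lists had lower medians on day 3. Of 9 measured sensors and targets of the unfolded protein response, 1 was called on each day, CREB3L1, a collagen-related transcription factor of the ER. CREB3L1 entered the test only through day 5, where it was highest, so a brighter signal on day 5 was partly built into its selection. It was not well above background on any array of day 3 or the controls, so no fold is given there. On day 5, with 3 of 3 arrays above background, its signal did not exceed the bound set by the controls. On day 7 it was above background on 1 array. The median of that list was -0.01 on day 3, 0.15 on day 5 and 0.20 on day 7. Among collagen synthesis genes, COL1A1 rose by 1.56, 1.62 and 1.57 on days 3, 5 and 7 (adjusted p = 0.00254, 0.00453 and 0.00578) and COL3A1 by 0.93 on day 3 and 1.04 on day 7 (adjusted p = 0.0329 and 0.0375). The remaining 11 of 13 were not called on any day, and the median was 0.34 on day 3. Of 20 heat shock factors and cytosolic co-chaperones, 0 were called on any day, with a median of -0.02 on day 3. HSF1, the main heat shock factor, changed by -0.32, -0.42 and -0.44 (adjusted p = 0.318, 0.279 and 0.216), and CRYAB, alpha-B crystallin, by -0.94, -0.94 and -0.40 (adjusted p = 0.199, 0.309 and 0.647).

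**Figure D4:**
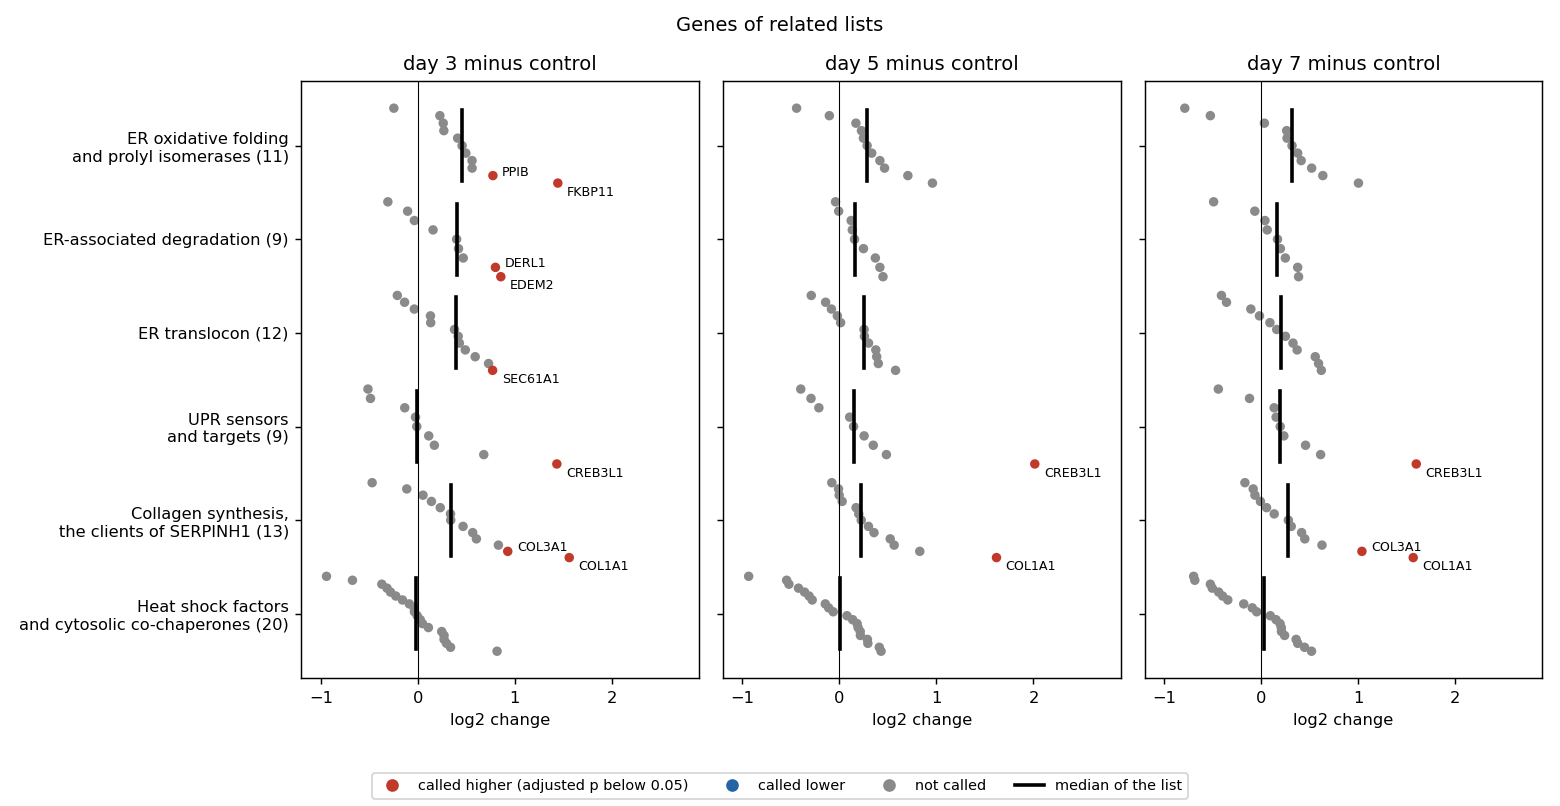
Log2 change of the measured genes of 6 related lists on days 3, 5 and 7 relative to controls, with n per list in brackets, called genes in red and the list's median as a black bar; 0 genes of these lists were called lower. On day 3 the medians of the first 3 lists lie at 0.46, 0.40 and 0.40, and that of the heat shock factors and co-chaperones at -0.02.

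Markers of other cells moved over the same days. Of all named genes tested, 4.88% were called higher and 2.1% lower on day 3, and 1.93% and 1.97% were called higher on days 5 and 7. In an artery sample, fewer cells of a type and less RNA per cell cannot be told apart. Of 5 measured macrophage markers, 4 rose on each day, and their summed level was 4.36 to 4.65 on day 3 and 2.73 to 3.33 in controls. A summed level is the log2 of the summed signals of the list, so the brightest probe weighs most in it. All 6 measured markers of dividing cells were called higher on day 3, with a summed level of 2.06 to 2.71 against -0.49 to 0.53 in controls. Of 3 genes in the lymphocyte list 2, CD79B and PTPRC (CD45), were called higher on day 3, and CD3D was not (0.77, limma adjusted p = 0.244). The summed level of the 3 was 0.24 to 1.14 on day 3 and -0.51 to 0.00 in controls. CD79B of the lymphocyte list and BUB1B and RRM2 of the dividing cell list were well above background in 0 controls, so they entered the test only through days on which they are high. Of 6 fibroblast and leptomeningeal markers 3 rose and 2 fell, with a median change of 0.72 but a lower summed level, 9.80 to 9.94 on day 3 and 10.3 to 11.1 in controls. The brightest probe of that list was PTGDS, 1 of the 2 that fell, with means of 8.74 on day 3 and 10.3 in controls. Of 6 measured endothelial markers 1, KDR, was called lower on day 3, where it was below background on all arrays (at least 2.31-fold lower, means of -5.25 on day 3 and -2.64 in controls, of which 2 were well above background, adjusted p = 0.0162). The summed level of the endothelial markers was between 5.52 and 6.38 over the 3 days, against 5.90 to 6.29 in controls. Their brightest probe was VWF, with a change of 0.41 on day 3 that was not called, while 4 of the 6 markers had a negative change that day. None of the 4 neutrophil, 2 erythroid and 1 neural markers measured was called on days 3, 5 or 7. Of the 9 contractile smooth muscle markers 8 were measured, which had 0 calls, with a median change of -0.51 on day 3 and a summed level of 9.16 to 9.38, against 9.69 to 9.82 in controls. Of the plasma cell markers, none was measured. The part of these cells in the changes of the chaperones was not tested.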

How the data were processed

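The authors deposited the scanner output of 12 Agilent arrays, extracted by Agilent Feature Extraction 9.5.1.1 (from the submitters' processing notes). The processed signal is, per the file headers, a background-subtracted intensity with no scaling between arrays, and the mean spot and median background signals are raw intensity values; the flags (kind other) are 0 or 1. The authors' deposited value table holds linear intensity values with the same median, 27.0, in every column, and was used as an alternative. Here outlier spots were set to missing, log2 processed signals (log2 of the deposited intensity) had the 75th percentile of an array's non-control spots subtracted, and spots of a probe were averaged. Of 43623 probes, 26434 were tested. Names came from the arrays and a RefSeq table of mOryCun1.1: 22993 probes had 1 gene, 303 several and 20327 none. The brightest tested probe on average stands for a gene. Of 36 members with several probes, 26 had all probes on 1 side of 0 on day 3, and none had calls in both directions. One fit of all 12 arrays was made with limma 3.58.1 (R 4.3.3), two-sided. The fit was checked on simulated arrays with independent errors and no effect of the slide. Fewer probes were changed there than were called in the data on any of the 3 days, so the shares below hold for that setting only. It called 37%, 34% and 43% of 2-fold changes on days 3, 5 and 7, and 86%, 85% and 89% of 4-fold changes. A missing call thus does not show that a gene was unchanged. Where a group had 0 arrays well above background, a bound is given: the bright group's mean against the dim group's mean after raising each dim array to its lowest signal above background, if that exceeds the probe's own. Alternatives were normexp correction (offset 50), quantile normalization, the authors' table, no filter on dim probes, probes well above background on all 12 arrays, the mean over a gene's probes, the slide as a block, array weights and leaving out each array. Members, lists and named genes were chosen with earlier results of these data known. Named are 20 measured of 30 preset chaperones, every called member, and in families without calls the member with the smallest F test p.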

Additional observations from a re-analysis of the deposited data

How the results depend on the processing

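With normexp correction the members called were 3 on day 3, 0 on day 5, 0 on day 7 and 2 by the F test, and with dim probes kept 3, 0, 0 and 0, against 6, 2, 2 and 4. With probes well above background on all 12 arrays day 5 had 1, and with the mean over a gene's probes days 5 and 7 had 1 each. With array weights day 5 had 3 (HSPB2 added), day 7 had 4, day 5 against day 3 had 2 and day 7 against day 3 had 1. Leaving out each array gave 3 to 6 on day 3 (3 without control replicate 2 or day 3 replicate 3), 0 to 2 on day 5, 0 to 4 on day 7 (4 without control replicate 3), 0 to 4 by the F test (0 without control replicate 1, day 3 replicate 2 or day 3 replicate 3) and 0 in each comparison between days.

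The replicate number is the slide. As a block it gave 7, 1 and 3 members on days 3, 5 and 7. Arrays of the same number tended to deviate together: the median r was 0.11 in 18 pairs (-0.15 to 0.39, 16 above 0), against -0.04 in 36 other pairs (-0.40 to 0.26, 11 above 0), and 9 of 12 arrays correlated best with their own number. Since only 10 of the 18 exceeded 0.1, the numbers were not taken to pair samples. The main fit left the slide out, although each slide held 1 array of every group. Of the values of the 29 named members under these settings, 3399 kept their side of the threshold, 66 lost a call, 9 gained one and 0 changed sign with a call. Outside those 29, DNAJC24 gained calls with the block on days 3 and 7, and CCT6A on day 3 without control replicate 3. Counts without CALR3 or with DNAJC18 among the ER genes were added after seeing the data. Among all genes, 525, 162 and 191 were called on days 3, 5 and 7. These counts were 317, 73 and 86 with normexp correction, 286, 94 and 83 with dim probes kept, and 101 on day 5 with probes well above background on all 12 arrays. With the replicate block they were 683, 194 and 291, and with array weights 723, 436 and 470. Leaving out each array gave 241 to 582, 83 to 219 and 71 to 568, with 568 on day 7 without control replicate 3. The cause of these differences was not tested.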
